A study of Mus musculus with 10 samples.

Results

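The genes described here encode potassium channels. They are the protein-coding entries of the deposited table whose symbols begin with Kcn, followed by a family letter and a number, and 93 of the 78317 listed genes met that rule. Poly(A) RNA from tissue punches was sequenced; the labels give wild-type mice, medial prefrontal cortex and a mixture of cell types. The 5 control libraries (numbers 3, 4, 5, 7 and 9) came from mice injected with a control adeno-associated virus (AAV), and the 5 miR-130a libraries (numbers 13, 14, 15, 17 and 18) from mice whose AAV carried the microRNA miR-130a-3p to raise its level. Strain, sex, age, time after injection, and the promoter and target cells of the vector are not given in the sources used here. Nothing says how many mice stand behind a library, so p-values measure the spread between libraries, which may be partly technical.

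Potassium channels let potassium leave or enter cells through a selective pore, and so set the resting potential, end action potentials and limit repetitive firing. Voltage-gated (Kv) subunits open on depolarization, inward rectifiers (Kir) and tandem-pore channels (K2P) carry resting conductance, and calcium-activated channels couple calcium entry to repolarization. In cortex most of these genes are known from neurons, while a few are typical of astrocytes, mural cells, microglia or lymphocytes. The design asks which transcripts differ when miR-130a-3p is overexpressed, and for this gene family whether channel transcripts of neurons or of other cells changed.

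A microRNA acts mainly through bases 2 to 8 of its own sequence, the seed, which pairs with sites in the 3′ untranslated region (UTR) of target mRNAs. The overexpressed microRNA is printed first, with the seed in capitals (RefSeq, GRCm38.p6, chr2:84741116-84741137, minus strand). Below it stand the 8-base matches, in capitals with 11 flanking bases on each side, found in tested members, because these are the places where the microRNA could pair with channel mRNAs. All are read in the sense of the mRNA, from GENCODE M21 transcripts on GRCm38.
miR-130a-3p: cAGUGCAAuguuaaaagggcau
Kcna4 (chr2:107297638-107297645, plus strand): ttttttttcttTTGCACTActttctatgcc
Kcnj2 (chr11:111074049-111074056, plus strand): tccgttcatttTTGCACTAtagtctgaaaa
Kcnt2 (chr1:140611666-140611673, plus strand): gtttagtatttTTGCACTAtgacaattgct
Kcnv1 (chr15:45106401-45106408, minus strand): atcaaagtctcTTGCACTAtgaacattgtc
The values that go with these sites follow after the subfamilies.

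Levels are in TPM, a transcript abundance corrected for length and scaled to the same total in each library, so that levels of different genes can be set side by side. TPM keep no depth, so the reads behind a value are unknown. Mir130a itself was listed at 0 TPM in all 10 libraries, so these poly(A) libraries do not show the overexpression. The summed level of 8 excitatory neuron markers lay between 1857 and 3520 TPM, whereas 3 of 6 choroid plexus markers (Otx2, Clic6 and Sostdc1) stayed below 1 TPM in every library. Microglial markers differed between the groups: the summed level of 12 such genes ran from 1905 to 3985 TPM in the control group and from 734 to 1069 TPM in the miR-130a group, and 11 of the 12 were lower in the test. In bulk tissue, fewer cells of a type and less RNA per cell cannot be told apart. Control library 9 had low values for many channel genes, as described next. The main counts and medians are given with and without it, as are the values of some genes.

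Channel transcripts made up 0.151% to 0.245% of all TPM. The 93 genes summed to 2123, 2407, 2445, 2105 and 1509 TPM in control libraries 3, 4, 5, 7 and 9, and to 2005, 2037, 1999, 2022 and 2041 TPM in miR-130a libraries 13, 14, 15, 17 and 18. The miR-130a libraries thus lay within a narrow band, below 4 of the controls and above control 9. Among the 72 tested members, control 9 held the lowest control value for 57, or 79.2%, where it did so for 44.1% of all tested genes. Excitatory neuron markers were also lowest in control 9, at 1857 TPM against 2727 to 3520 TPM in the other controls, and microglial markers were highest there, at 3985 TPM. The part of these cell type differences in the channel values was not tested. The median coefficient of variation of the tested members was 21.1% in control and 14.6% in miR-130a libraries, and 13.1% in the controls without library 9.

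**Figure D1:**
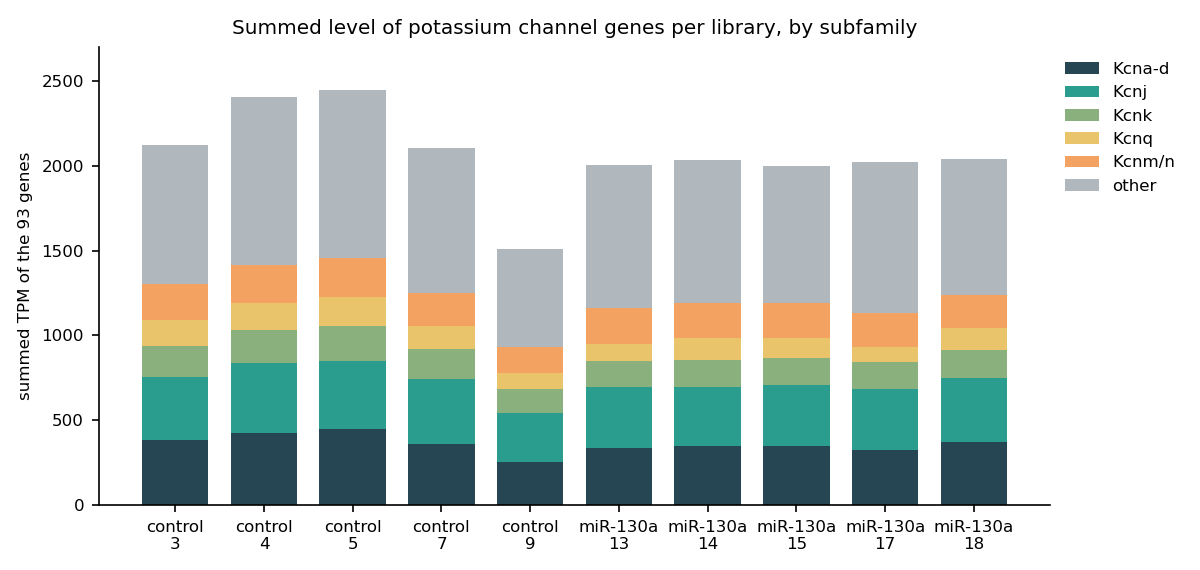
Stacked bars give the summed TPM of the 93 potassium channel genes in each of the 10 libraries, split by subfamily. The 5 miR-130a libraries sit between 1999 and 2041 TPM, while the controls spread from 1509 TPM in library 9 to 2445 TPM in library 5.

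Of the 93 members, 72 had a mean of at least 1 TPM over the 10 libraries and were tested with limma on log2(TPM + 1), with Benjamini-Hochberg adjustment over all 15680 genes tested. In the miR-130a group 3 members were lower at an adjusted p of 0.05, which is 4.17% of those tested, where 11.3% of all tested genes were lower. Higher calls numbered 0 by limma, against 2.19% of all tested genes. At an unadjusted p under 0.05 there were 9 lower members (12.5%, beside 22% of all tested genes) and 4 higher (5.56%, beside 6.36%). The exact permutation test per gene, whose smallest p is 0.00794 here, called 0 members after the same adjustment. It also called 0 of all tested genes, so it cannot decide on any member. Ranges of the groups did not overlap for 2 members that were lower and 1 that was higher, where 9.46% and 1.85% of all tested genes did so. The median log2 fold change of the 72 was −0.03, beside −0.09 for all tested genes. Without control 9 the members' median was the lower of the pair, −0.15 beside −0.13, and without controls 7 and 9 it was −0.19 beside −0.15. For 68 of the 72, the 95% interval of the change in TPM + 1 stayed within 2-fold in both directions, and for 46 within 1.5-fold. The 4 whose interval reached a 2-fold decrease were Kcnj13, Kcnk6, Kcnn4 and Kcne5. These bounds do not hold for TPM itself in weak genes, as adding 1 shrinks their changes. Kcnn4, with means of 2.12 and 0.276 TPM, had a log2 fold change of −1.16.

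**Figure D2:**
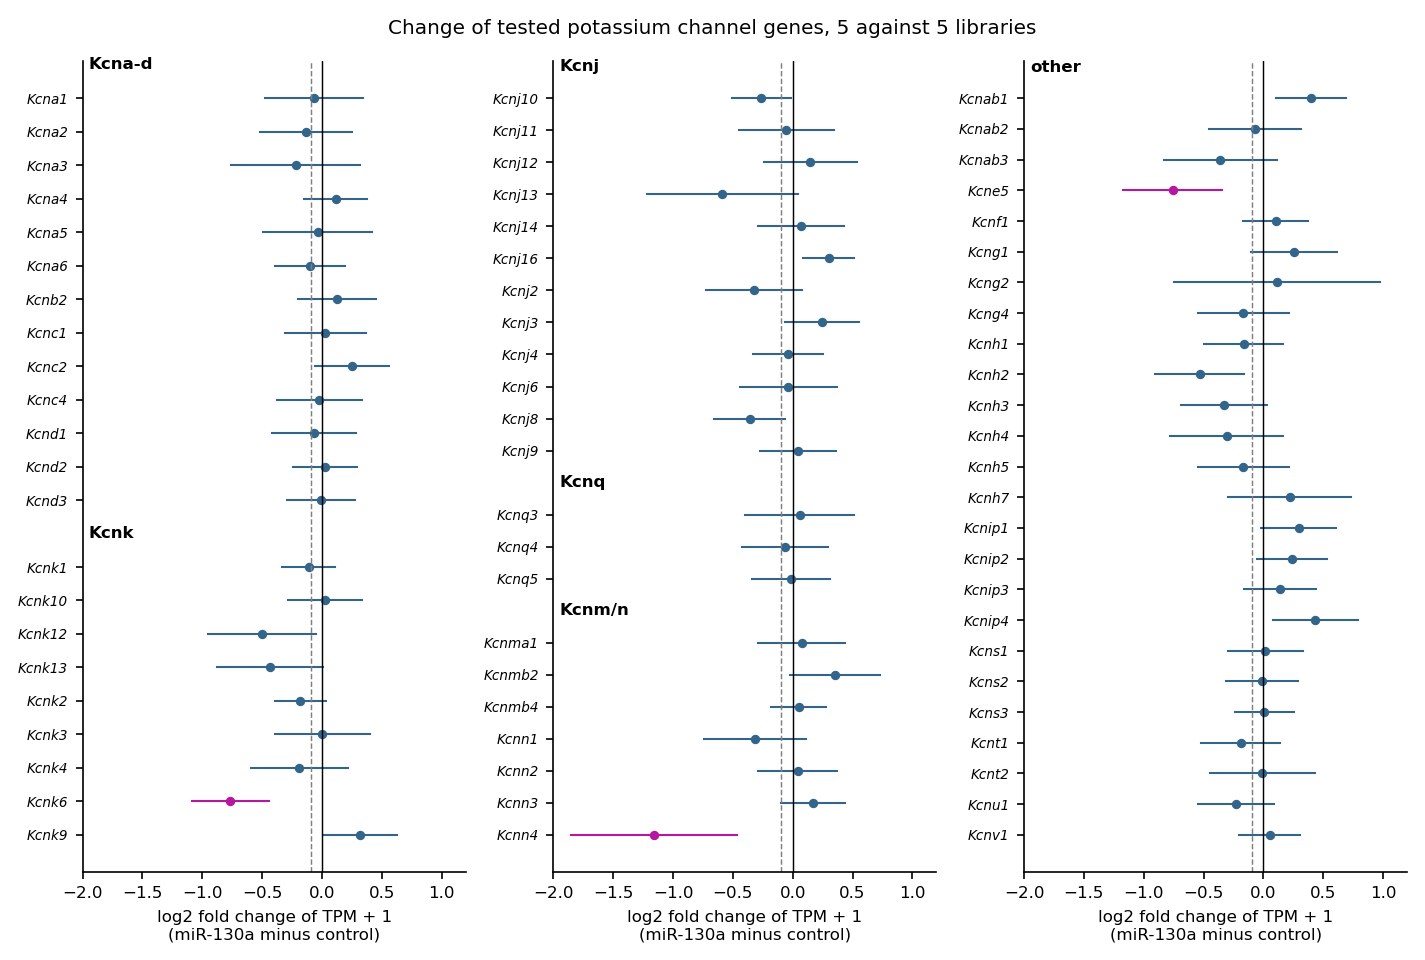
Points give the log2 fold change of TPM + 1 (miR-130a minus control, 5 libraries each) and lines the 95% interval from limma for tested members, by subfamily; some tested members are not drawn. The 3 members in purple passed the adjusted p of 0.05, all of them lower, and the dashed line marks the median of all tested genes, −0.09.

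These counts depend on control library 9. That library was set apart for its low channel values, so leaving it out raises the control mean of most members. Lower medians follow from that choice, and the added lower calls are not independent of it. Without control 9, 13 of 72 members were lower (18.1%) beside 18.6% of all tested genes, and 0 were higher beside 3.18%. The 10 added included Kcnab3, Kcnh1, Kcnh2, Kcnh3, Kcnk12, Kcnn1 and Kcnt1; all 10 had log2 fold changes between −0.72 and −0.31 (limma adjusted p from 0.00244 to 0.0365). Without controls 7 and 9, 11 members were lower (15.3%) beside 15.6% of all tested genes, and 0 were higher beside 2.30%. With all libraries, 41 of 72 members had a log2 fold change below 0, beside 9973 of all 15680 tested genes. Without control 9 this held for 55 of 72 members. The number over all genes was not counted there, so the rise cannot be set beside theirs. The median of all tested genes also went down without control 9, from −0.09 to −0.13. By subfamily, the median went without control 9 from −0.04 to −0.15 for the Kcna to Kcnd genes, from −0.04 to −0.19 for Kcnj, from −0.18 to −0.23 for Kcnk, from −0.04 to −0.14 for Kcnq and from 0.05 to −0.04 for the calcium-activated genes. Scaling changed the balance of calls too. With median-ratio scaling the median of all genes was 0.01, 3 members were lower (4.17%, beside 7.60% of all tested genes) and 6 higher (8.33%, beside 5.5%). With quantile normalization it was 0.05, and 1 member was lower (1.39%, beside 6.67%) and 7 were higher (9.72%, beside 6.83%).

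**Figure D3:**
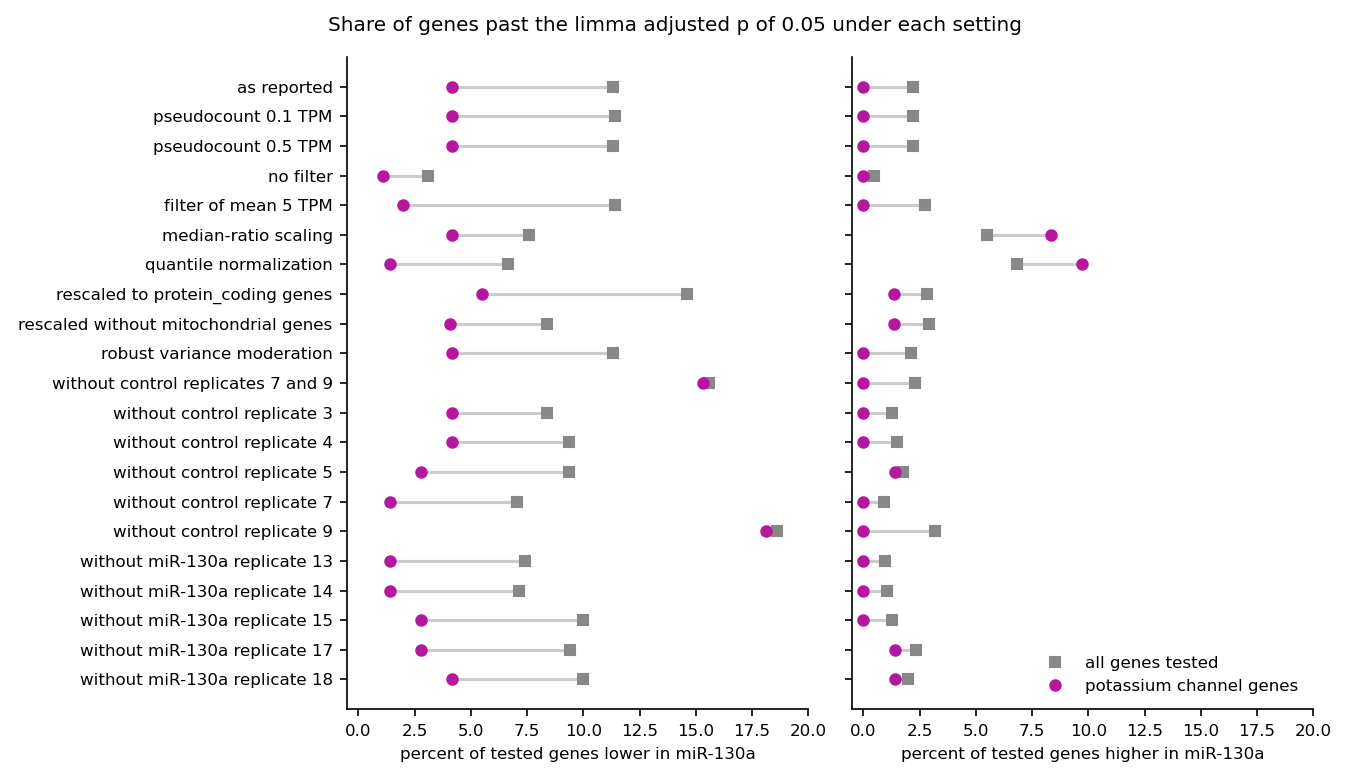
Each row is a setting of the analysis or a library left out; circles give the percent of tested potassium channel genes, squares the percent of all tested genes, past the limma adjusted p of 0.05 in each direction. The share of lower channel genes comes closest to that of all genes without control 9 and without controls 7 and 9, and the share of higher ones exceeds it under median-ratio scaling and quantile normalization.

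The 3 lower members are not the main channel genes of cortical neurons by level. Kcnk6 (ENSMUSG00000046410) encodes TWIK2, a tandem-pore channel known from macrophages and vessels. It was at 4.51, 3.23, 4.45, 4.93 and 5.18 TPM in control libraries 3, 4, 5, 7 and 9, and at 1.83, 2.00, 2.88, 2.46 and 1.88 TPM in miR-130a libraries 13, 14, 15, 17 and 18. Every control lay above every miR-130a library. The means were 4.46 ± 0.751 and 2.21 ± 0.450 TPM (SD, n = 5 each), a log2 fold change of −0.77 (SE 0.146; limma adjusted p = 0.00655). This call passed without any single library and under every scaling tried, with limma adjusted p-values up to 0.0228. In the exact permutation test Kcnk6 had the smallest possible p, 0.00794, and an adjusted p of 0.0701. Of all tested genes 0 passed that test, so it could not decide on this call. Microglial markers, given above, did not overlap between the groups and 11 of 12 were lower. Endothelial markers, 8 genes, summed to 287 to 343 TPM in the control group and 207 to 249 TPM in the miR-130a group, with 6 of the 8 lower in the test and a median log2 fold change of −0.48. The part of either cell type in the value of Kcnk6 was not tested.

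Kcnn4 encodes KCa3.1, a calcium-activated channel of T lymphocytes and microglia that lacks voltage gating. It was at 1.29, 0.93, 0.72, 4.04 and 3.6 TPM in control libraries 3, 4, 5, 7 and 9, and at 0.26, 0.14, 0.13, 0.13 and 0.72 TPM in miR-130a libraries 13, 14, 15, 17 and 18. Controls 7 and 9 were far above the other controls, and control 5 and miR-130a library 18 had the same value. The log2 fold change was −1.16 (SE 0.317; limma adjusted p = 0.0325). Kcnn4 entered the test through the control group only, since its miR-130a mean was below 1 TPM. Its call was lost without control 7 (log2 fold change −0.95, limma adjusted p = 0.0779), without miR-130a libraries 13, 14, 15 or 17 in turn, without controls 7 and 9 together (−0.64, limma adjusted p = 0.0621), under quantile normalization (0.0562) and without a filter (0.0838). Summed T cell markers, 8 genes, were likewise highest in controls 7 and 9, at 70.8 and 101 TPM. They were at 15.5 to 37.5 TPM in the other controls and 4.02 to 18.4 TPM in miR-130a libraries. Summed microglial markers, 12 genes, were also highest in controls 7 and 9, at 3475 and 3985 TPM. They were at 1905 to 2744 TPM in the other controls and 734 to 1069 TPM in miR-130a libraries. The part of either cell type in the value of Kcnn4 was not tested.

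Kcne5 encodes a single-span accessory subunit of voltage-gated channels. Control libraries 3, 4, 5, 7 and 9 held 10.1, 10.3, 14.8, 11.1 and 9.33 TPM, and miR-130a libraries 13, 14, 15, 17 and 18 held 4.61, 4.35, 6.01, 9.59 and 7.07 TPM. The ranges overlapped through control 9 and miR-130a library 17. The means were 11.1 ± 2.15 and 6.33 ± 2.13 TPM (SD, n = 5 each; log2 fold change −0.76, SE 0.190, limma adjusted p = 0.0230). Leaving out control 5, control 7, miR-130a library 13 or miR-130a library 14 ended the call, with limma adjusted p-values up to 0.0634, as did quantile normalization (0.0707) and the absence of a filter (0.0649).

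**Figure D4:**
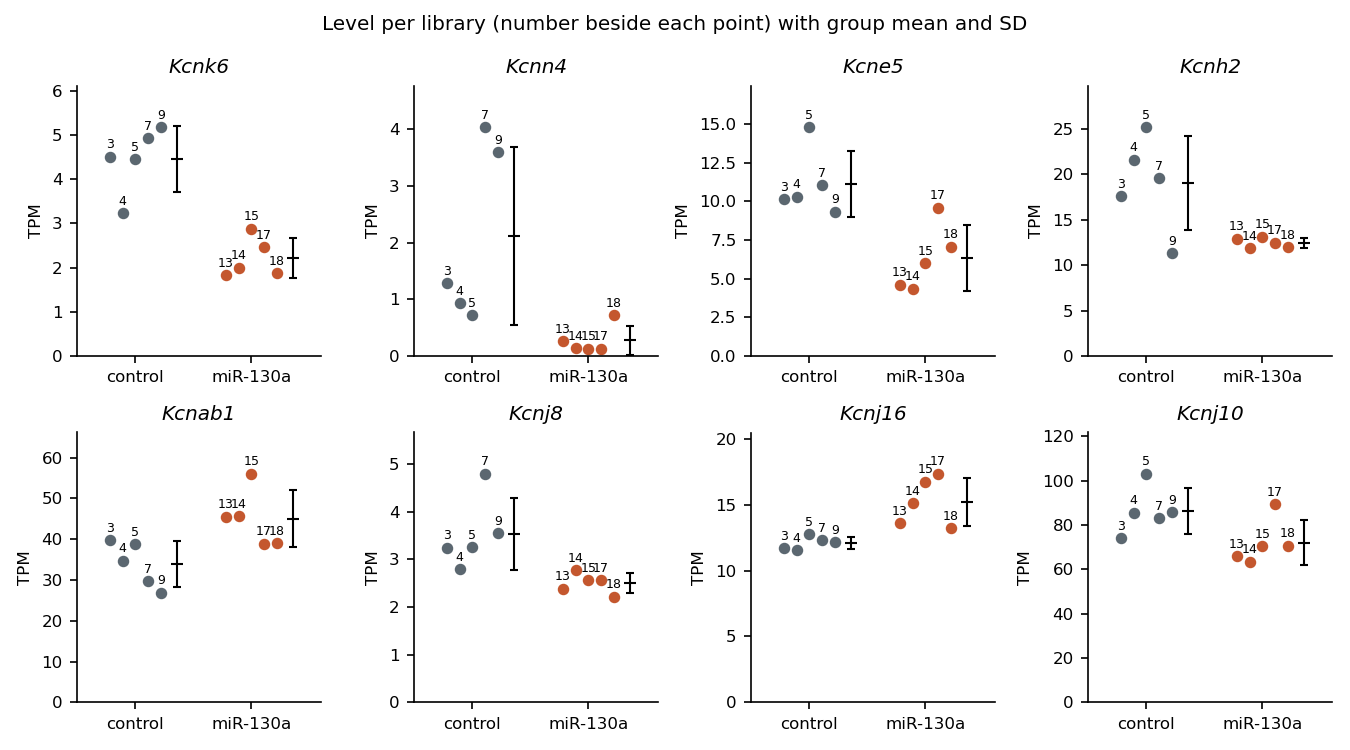
Dots give TPM per library, numbered as in the text, for the 3 lower genes (Kcnk6, Kcnn4, Kcne5) and 5 further channel genes; bars give the group mean and SD (n = 5). Kcnk6 separates the groups, Kcnn4 is high in controls 7 and 9, and in Kcnh2 control 9 lies below the miR-130a values while the other controls lie above them.

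Kv subunits of the Kcna, Kcnb, Kcnc and Kcnd families form the delayed rectifier and A-type currents of neurons. Of 17 genes 15 were tested, 0 were lower and 0 higher by limma, and at an unadjusted p under 0.05 there was 1 lower (6.67%, beside 22% of all tested genes) and 0 higher (beside 6.36%). Their median log2 fold change was −0.04. The 3 most abundant did not pass: Kcna6 at 56.8 ± 10.98 and 52.4 ± 6.52 TPM, Kcnc1 at 48.4 ± 11.1 and 48.4 ± 4.03 TPM, and Kcnc4 at 45.3 ± 10.96 and 43.6 ± 4.14 TPM in control and miR-130a libraries (SD, n = 5 each). Kcnc1 and Kcnc2 encode Kv3 subunits for fast firing, well known from parvalbumin interneurons. Summed inhibitory neuron markers, 8 genes, were between 906 and 1166 TPM in the control group and between 1284 and 1667 TPM in the miR-130a group, with 2 of the 8 higher in the test. Kcnc2, chosen after its values were seen, had a log2 fold change of 0.25 (limma adjusted p = 0.277), which became 0.36 and passed under median-ratio scaling (limma adjusted p = 0.0405). Without control 9 it was 0.14 (limma adjusted p = 0.411), and without controls 7 and 9 it was 0.08 (0.671). The part of interneuron content was not tested.

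Kv4 channels, built from Kcnd subunits, carry auxiliary KChIP proteins encoded by Kcnip genes. The Kcnd genes had log2 fold changes of −0.07 (Kcnd1), 0.03 (Kcnd2) and −0.00 (Kcnd3), none of which passed. The 4 Kcnip genes had values of 0.29 (Kcnip1), 0.24 (Kcnip2), 0.14 (Kcnip3) and 0.43 (Kcnip4). All lay above 0, as did 5707 of all 15680 tested genes, and none passed the threshold (limma adjusted p from 0.102 to 0.561). Kcnip3, also known as the calcium-binding repressor DREAM, was the most abundant of them, at 80.8 ± 15.4 and 88.3 ± 10.7 TPM (SD, n = 5 each). Kcnip1 and Kcnip4 passed upward under median-ratio scaling (limma adjusted p = 0.0494 and 0.0276). Without control 9 the values were smaller, at 0.19 (Kcnip1), 0.11 (Kcnip2), 0.03 (Kcnip3) and 0.34 (Kcnip4), and Kcnip3 was at −0.01 without controls 7 and 9. The other Kv4 partners, the peptidase-like proteins Dpp6 and Dpp10, had log2 fold changes of −0.24 and 0.06 and did not pass.

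Kvβ subunits, encoded by the Kcnab genes, bind Kv1 channels on the cytoplasmic side. Kcnab2 had the highest level of all members, 271 ± 68.0 TPM for control and 253 ± 38.7 TPM for miR-130a libraries (SD, n = 5 each), and did not pass (log2 fold change −0.07, 95% interval from −0.45 to 0.31; limma adjusted p = 0.836). Kcnab1 was at 39.8, 34.8, 38.9, 29.8 and 26.9 TPM in control libraries 3, 4, 5, 7 and 9, and at 45.5, 45.6, 56.1, 38.9 and 39.0 TPM in miR-130a libraries 13, 14, 15, 17 and 18. Control 3 alone reached into the miR-130a range, above libraries 17 and 18. The log2 fold change was 0.40 without passing (limma adjusted p = 0.0750), and it passed under median-ratio scaling, quantile normalization and rescaling to protein-coding genes (limma adjusted p = 0.0111, 0.0143 and 0.0452). Without control 9 it was 0.32 (limma adjusted p = 0.0949), and without controls 7 and 9 it was 0.24 (0.222). Of all 12 auxiliary genes of the Kcnab, Kcne and Kcnip families 8 were tested. By limma 1 was lower (Kcne5, 12.5% beside 11.3% of all tested genes) and 0 were higher (beside 2.19%).

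Silent Kv subunits (Kcnf, Kcng, Kcns and Kcnv) modify other Kv subunits and form no channel alone. Of 10 genes 8 were tested, 0 were lower and 0 higher by limma, also at an unadjusted p under 0.05, and the median log2 fold change was 0.03, or −0.04 without control 9. The Kcnh genes encode ether-à-go-go type channels, and of 8 genes 6 were tested with 0 calls. Changes below 0 numbered 5 of 6, beside 9973 of all 15680 tested genes. Kcnh3, the most abundant, was at 84.7 ± 20.3 and 65.5 ± 5.86 TPM (SD, n = 5 each; log2 fold change −0.33, limma adjusted p = 0.215). Without control 9 it was −0.50 and passed (limma adjusted p = 0.00688).

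Kcnh2 encodes ERG1, a channel of slow repolarization, and came closest to the threshold among members that did not pass. It was at 17.6, 21.6, 25.2, 19.6 and 11.3 TPM in control libraries 3, 4, 5, 7 and 9, and at 12.9, 11.8, 13.1, 12.5 and 11.97 TPM in miR-130a libraries 13, 14, 15, 17 and 18. Every control but library 9 lay above every miR-130a library. The log2 fold change was −0.53 (limma adjusted p = 0.0591), −0.70 without control 9 (limma adjusted p = 0.00264), and −0.53 after rescaling to protein-coding genes, where it passed (limma adjusted p = 0.0383). The sodium-activated channels Kcnt1 and Kcnt2 and their relative Kcnu1 gave 0 calls, with log2 fold changes of −0.19, −0.01 and −0.23.

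Kcnq genes encode the Kv7 subunits of the M-current, which restrains repetitive firing. Of 5 genes 4 were tested, with 0 lower and 0 higher by limma. At an unadjusted p under 0.05 there was 1 lower (25%, beside 22% of all tested genes) and 0 higher (beside 6.36%). Kcnq3 was at 12.4 ± 1.96 and 13.3 ± 3.97 TPM (0.06 on the log2 scale, limma adjusted p = 0.895; SD, n = 5 each) and did not pass. Neither did Kcnq5, at 25.6 ± 4.83 and 25.2 ± 3.67 TPM (−0.01, limma adjusted p = 0.964; SD, n = 5 each).

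Inward rectifiers, the Kcnj genes, include G protein-gated, ATP-sensitive and glial channels. Of 15 genes 12 were tested and 0 were lower or higher by limma, with 2 lower (16.7%, beside 22% of all tested genes) and 1 higher (8.33%, beside 6.36%) at an unadjusted p under 0.05 and a median log2 fold change of −0.04. Kcnj4 (Kir2.3), the most abundant, was at 119 ± 22.4 and 114 ± 9.72 TPM, and Kcnj9 (GIRK3) at 57.0 ± 10.8 and 58.2 ± 6.89 TPM (SD, n = 5 each). The neuronal ATP-sensitive pair of pore gene Kcnj11 and sulfonylurea receptor gene Abcc8 had log2 fold changes of −0.05 and −0.08. The vascular pair, known from pericytes and smooth muscle, of Kcnj8 and Abcc9 did not pass either, though neither gene overlapped between the groups. Kcnj8 was at 3.25, 2.79, 3.26, 4.80 and 3.55 TPM in control libraries 3, 4, 5, 7 and 9, and at 2.39, 2.78, 2.56, 2.56 and 2.22 TPM in miR-130a libraries 13, 14, 15, 17 and 18, so that the groups did not overlap by 0.01 TPM (log2 fold change −0.36, limma adjusted p = 0.107; −0.23 without controls 7 and 9). Abcc9 was at 2.51 ± 0.356 and 1.72 ± 0.269 TPM (SD, n = 5 each; −0.37, limma adjusted p = 0.0945). Summed mural cell markers, 8 genes, were between 188 and 247 TPM in the control group and between 125 and 172 TPM in the miR-130a group, with 4 of the 8 lower in the test, and their part in Kcnj8 and Abcc9 was not tested.

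Kcnj10 (Kir4.1) and Kcnj16 (Kir5.1) encode subunits that join in astrocyte channels for potassium uptake. Neither passed, and their fold changes had opposite signs. Kcnj16 was at 11.7, 11.5, 12.7, 12.3 and 12.2 TPM in control libraries 3, 4, 5, 7 and 9, and at 13.6, 15.1, 16.7, 17.3 and 13.2 TPM in miR-130a libraries 13, 14, 15, 17 and 18. It was the only tested member whose miR-130a values all lay above the controls. The log2 fold change was 0.30 (SE 0.0970; limma adjusted p = 0.0614), and it passed under median-ratio scaling, quantile normalization and rescaling without mitochondrially encoded genes (limma adjusted p = 0.0253, 0.0124 and 0.0351). Mitochondrially encoded genes took 13% to 16.4% of TPM in the control group and 16% to 19.9% in the miR-130a group. Kcnj10 was at 74.1, 85.5, 103, 83.0 and 85.7 TPM in control libraries 3, 4, 5, 7 and 9, and at 65.9, 63.5, 70.3, 89.3 and 70.6 TPM in miR-130a libraries 13, 14, 15, 17 and 18. All miR-130a libraries but number 17 lay below all controls. Its log2 fold change was −0.26 (limma adjusted p = 0.155). Summed astrocyte markers, 10 genes, overlapped between the groups at 1833 to 2261 and 1644 to 2090 TPM. Of the 10, 1 was lower in the test, and their median log2 fold change was −0.27. The medians of oligodendrocyte markers (−0.24, 0 of 8 lower) and of oligodendrocyte precursor markers (−0.28, 0 of 6 lower) were similar. The part of these cell types in Kcnj10 and Kcnj16 was not tested.

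Tandem-pore channels, the Kcnk genes, carry background conductance. Of 14 genes 9 were tested, and by limma 1 was lower (Kcnk6, 11.1% beside 11.3% of all tested genes) and 0 were higher (beside 2.19%). The median log2 fold change was −0.18. At an unadjusted p under 0.05, 2 were lower (22.2%, beside 22% of all tested genes) and 1 higher (11.1%, beside 6.36%). The abundant Kcnk1 (TWIK1) was at 74.6 ± 9.02 and 68.8 ± 5.40 TPM, Kcnk2 (TREK1) at 33.5 ± 4.04 and 29.4 ± 1.94 TPM and Kcnk3 (TASK1) at 18.4 ± 4.29 and 18.3 ± 4.18 TPM (SD, n = 5 each), and none of them passed. Without controls 7 and 9 Kcnk2 passed as lower (log2 fold change −0.30, limma adjusted p = 0.0327), and Kcnk1 and Kcnk3 did not. Kcnk12 did not pass (−0.50, limma adjusted p = 0.131), but did without control 9 (−0.72, limma adjusted p = 0.00244). Kcnk13 encodes THIK1, the resting potassium channel of microglia. It was at 3.99, 4.92, 4.69, 3.67 and 4.94 TPM in control libraries 3, 4, 5, 7 and 9, and at 2.17, 1.64, 3.6, 3.86 and 4.54 TPM in miR-130a libraries 13, 14, 15, 17 and 18. Libraries 13 and 14 were low, while 17 and 18 lay among the controls, and the log2 fold change of −0.43 did not pass (limma adjusted p = 0.182). The voltage-gated Kcna3, also known from T cells and microglia, did not pass either (2.84 ± 0.993 and 2.37 ± 1.07 TPM; SD, n = 5 each; limma adjusted p = 0.615).

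Calcium-activated channels comprise the large-conductance (BK) pore gene Kcnma1, its β subunit genes Kcnmb and the small- and intermediate-conductance Kcnn genes. Of 9 genes 7 were tested, and by limma 1 was lower (Kcnn4, 14.3% beside 11.3% of all tested genes) and 0 were higher (beside 2.19%). The median log2 fold change was 0.05. Kcnmb4, the neuronal β subunit and the second most abundant member, was at 130 ± 17.4 and 134 ± 8.95 TPM (SD, n = 5 each; log2 fold change 0.05, 95% interval from −0.18 to 0.28). Kcnma1 was at 35.2 ± 7.52 and 36.9 ± 6.90 TPM and Kcnn2, the SK2 gene, at 14.1 ± 3.37 and 14.3 ± 1.57 TPM (SD, n = 5 each), without passing. The table also lists genes antisense to Kcnmb4, Kcnd3 and Kcnab3, and whether the counting used strand is not given in the sources used here, so reads of such pairs may not be separated.

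The 21 members below the filter were not tested. Kcnj1, the renal outer medullary channel, was listed at 0 TPM in all 10 libraries. Closest to the filter lay Kcnk5 at means of 1.22 and 0.594 TPM and Kcne4 at 1.05 and 0.646 TPM in control and miR-130a libraries.

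Members with a seed match included 0 of the 3 lower genes. Searched on the mRNA strand were TTGCACT (pairing with bases 2 to 8), TGCACTA (bases 2 to 7 followed by an A) and their union TTGCACTA, in the longest annotated 3′ UTR. Of the 72 tested members 14 held at least 1 match (19.4%), as did 16.0% of the 13268 tested genes with an annotated 3′ UTR, and 4 held the 8-base match (5.56%, beside 2.45%). Their UTRs were longer, with a median of 1808 bases beside 1225. The 14 with a match had a median log2 fold change of 0.01 and 0 calls by limma, and the 58 without a match a median of −0.04 and all 3 lower calls. Without control 9 these medians were −0.08 and −0.16. Of the 4 with the 8-base sites printed above, 0 passed: Kcna4 had a log2 fold change of 0.11, Kcnv1 of 0.05, Kcnt2 of −0.01 and Kcnj2 of −0.32 (limma adjusted p from 0.284 to 0.981). Kcnj2 (Kir2.1), at 4.32 ± 0.785 and 3.33 ± 1.10 TPM (SD, n = 5 each), was spread widely among the miR-130a libraries, from 2.06 to 4.51 TPM. Kcnk6, Kcnn4 and Kcne5 held no match in their annotated UTRs.

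**Figure D5:**
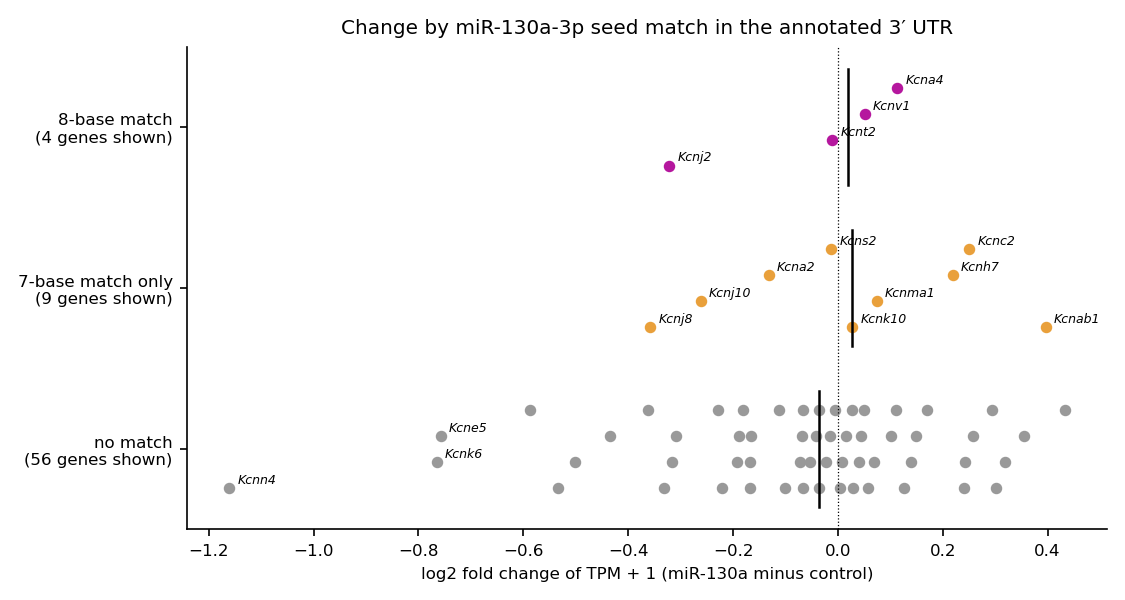
Each dot is a tested potassium channel gene, placed by its log2 fold change (miR-130a minus control) and grouped by the kind of miR-130a-3p seed match in its longest annotated 3′ UTR; vertical bars are medians of the genes drawn, and some tested members are not drawn. The 3 genes that passed the test, Kcnk6, Kcnn4 and Kcne5, are among the 58 without a match, and the 4 genes with an 8-base match lie between −0.32 and 0.11.

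Among 31 listed genes that assemble, anchor or oppose potassium channels, 29 were tested, 2 were lower (6.90%) and 1 higher (3.45%), where 11.3% and 2.19% of all tested genes were. The median log2 fold change of the 29 was −0.12, beside −0.09 for all tested genes. Cntnap2, which gathers Kv1 channels beside the node of Ranvier, was at 24.5, 25.5, 28.9, 21.8 and 23.4 TPM in control libraries 3, 4, 5, 7 and 9, and at 34.2, 30.6, 34.9, 36.8 and 34.0 TPM in miR-130a libraries 13, 14, 15, 17 and 18. All miR-130a values lay above all controls (log2 fold change 0.45, SE 0.0933; limma adjusted p = 0.00985), and the call passed without any single library. The sodium pump subunit gene Atp1b2 fell by 0.50 on the log2 scale, with means of 303.5 ± 54.95 and 213 ± 34.2 TPM (limma adjusted p = 0.0376), and Pex5l, the TRIP8b subunit of HCN pacemaker channels, by 0.52, with means of 101 ± 15.9 and 70.7 ± 14.7 TPM (limma adjusted p = 0.0490; SD, n = 5 each). Both calls were lost under median-ratio scaling (limma adjusted p = 0.111 and 0.0745). Each was also lost without any of 8 single libraries in turn. The HCN gene Hcn2 was at 127.5 ± 32.4 and 86.5 ± 18.6 TPM (SD, n = 5 each) and did not pass (limma adjusted p = 0.101). The neuronal potassium-chloride cotransporter gene Slc12a5 had a log2 fold change of 0.01.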

How the data were processed

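The authors deposited TPM per gene and library, and 2 columns of group means that were not used here. Fastp, HISAT2, RSEM, DESeq2 and the build GRCm39 are named in the submitters' processing notes, without role or version. Per the labels' protocols, punches were 1 mm wide, RNA integrity numbers had to reach 6.5, and libraries were stranded and poly(A)-selected. Columns were matched to samples by title. Depth is unknown, so no counting intervals were made. Genes averaging 1 TPM or more across the libraries were analysed as log2(TPM + 1), with fold changes on that scale, which understates changes of weak genes. Groups were compared with limma 3.58.1 (trend, 2-sided, Benjamini-Hochberg adjustment, threshold 0.05) in R 4.3.3, and the fit was tested on simulated data. No batch is labelled, and library numbers run in separate blocks by group, so a batch following them and the group cannot be told apart. UTRs came from GENCODE M21 (GRCm38, not the files' build). Python 3.11.15, numpy 2.4.6, pandas 2.3.3 and matplotlib 3.10.9 were used. Named were members past the threshold, the 3 most abundant per subfamily and partner genes past it; other genes were chosen after their values were seen. Some genes are counted but not reported by name here. Members, lists and tests were chosen with earlier results of these data known. Alternatives were other pseudocounts, filters, scalings and variance moderation, an exact permutation test per gene, and leaving out libraries.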

Additional observations from a re-analysis of the deposited data

Results flagged for a closer look

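In groups of 5, a library is singled out when its gap to the nearest other value exceeds 0.71 of the group's range (Dixon's test). Of 62 groups examined, over the named genes, the subfamily sums and the sum of all members, 4 met this, where chance gives about 5% of groups. Control 9 did not meet it for the sum of all members (0.637 of the range) or for any subfamily sum (0.499 to 0.670). Kcna6, a Kv1 subunit, was at 64.0 TPM in miR-130a library 17 and at 48.5 to 50.5 TPM in the other 4. Kcnj10, the astrocyte inward rectifier, was at 89.3 TPM in the same library and at 63.5 to 70.6 TPM in the others. Kcnj9, a G protein-gated rectifier, was at 38.1 TPM in control 9 and at 59.2 to 65.1 TPM in the other controls. Kcnn4 was at 0.720 TPM in miR-130a library 18 and at 0.130 to 0.260 TPM in the other miR-130a libraries.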

How the results depend on the processing

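No paired analysis was possible because the groups share no replicate numbers. The 3 lower members became 1 with no filter, 1 with a filter of 5 TPM and 1 under quantile normalization, 0 in the exact permutation test, 11 without controls 7 and 9, and 1 to 13 when single libraries were left out (13 without control 9). The 0 higher members became 6 under median-ratio scaling, 7 under quantile normalization, 1 after rescaling to protein-coding genes, 1 after rescaling without mitochondrially encoded genes, and 0 to 1 without single libraries. Of all tested genes, 1767 were lower, with 1124 without a filter, 1046 under quantile normalization, 0 in the permutation test and 1108 to 2922 without single libraries. The 343 higher became 178 without a filter, 862 under median-ratio scaling, 1071 under quantile normalization, 0 in the permutation test and 146 to 499 without single libraries. The 3 partner calls became 1 without a filter, 0 in the permutation test, 10 without controls 7 and 9, and 1 to 8 without single libraries. The permutation test has a smallest p of 0.00794 per gene, so its counts of 0 say little. The share of higher calls among all genes was 42.0% under median-ratio scaling and 50.6% under quantile normalization, where the deposited scale gave 16.3%. The members' median lay between −0.19 and 0.14 under all alternatives run. Over 24 named genes, 455 of 502 values under alternatives kept their side of the threshold, 42 lost the call and 5 gained it. Most of the 24 had no call to lose, and every loss fell on a called gene. Pex5l kept its call in 8 alternatives and lost it in 13, Atp1b2 in 10 and 11, and Kcnn4 in 11 and 9. For Kcne5 these numbers were 14 and 7, for Kcnk6 19 and 1, and for Cntnap2 20 and 1. The cause of these shifts was not tested beyond what fewer libraries or genes imply.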

Other observations

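The ratio of 2 subunit genes within a library does not depend on the scaling of that library. Of such ratios, chosen after the values were seen and described without a test, that of Kcnj16 to Kcnj10 did not overlap between the groups: it was 0.158, 0.135, 0.123, 0.148 and 0.142 in control libraries 3, 4, 5, 7 and 9, and 0.207, 0.238, 0.238, 0.194 and 0.187 in miR-130a libraries 13, 14, 15, 17 and 18. Kcnab1 to Kcnab2 (0.130 ± 0.0281 and 0.184 ± 0.0557), the G protein-gated rectifiers Kcnj3 to Kcnj9 (0.620 ± 0.1 and 0.709 ± 0.0737) and Kcnip4 to Kcnd2 (1.46 ± 0.237 and 1.95 ± 0.260; SD, n = 5 each) overlapped.

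Library 17 of the miR-130a group held the lowest value of its group for 26 of the 72 tested members, 36.1%, as for 35.8% of all tested genes. These 26 have a median longest annotated transcript of 5330 bases, beside 3600 bases for the other 46. The same comparison gave 4031 beside 3857 bases for miR-130a library 13 and 3811 beside 3922 for library 14. It gave 3339 beside 4052 bases for library 15 and 2706 beside 3990 for library 18. For control 9, the lowest control for 57 members, it gave 3922 beside 3536 bases. The other controls were each lowest for at most 6 members. Transcript lengths over all tested genes were not compared.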
